A study of Homo sapiens with 23 samples.

Results

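Clone 7 and clone 8 are resistant derivatives of WM989 A6-G3, a human melanoma line with a BRAF mutation that had been reduced to a single cell and regrown. Each clone was expanded from 1 colony that grew out of the line under 1 µM vemurafenib, an inhibitor of mutant BRAF, and that concentration stayed in the medium. Both clones therefore share the parental line, the drug and its dose, and the genotype label of every group is WT. The comparison took the 3 libraries labelled clone 7 and the 3 labelled clone 8, 6 of the 23 libraries of the series, and covered every gene tested. Another 3 libraries, of the parental line with no drug in the medium (untreated cells), serve here as a level to set the clones against. The remaining libraries were from clone 9, also under 1 µM vemurafenib, and from clones 10 to 13, in which 250 nM dabrafenib, also a blocker of BRAF, was combined with 2.5 nM trametinib, which blocks MEK. Each clone stands for 1 colony, so a difference between clone 7 and clone 8 is a difference between 2 cell populations and not between treatments. The labels call the libraries of a group biological replicates without saying what separated them. For each gene, p-values measure the spread between libraries of the same group, pooled over all 8 groups of the series. This spread may be technical.

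Mutant BRAF drives the MAP kinase pathway in melanoma, and vemurafenib blocks that signal. Melanoma cells that survive BRAF inhibition are known for losing melanocyte genes, which are under the transcription factors MITF and SOX10, and for gaining genes of mesenchymal cells, among them collagens, matrix enzymes and contractile proteins. Resistant cells can also carry an active interferon programme, in which type I or type II interferon, acting through JAK kinases and STAT and IRF transcription factors, switches on antiviral genes. All of this was sequenced as poly(A) RNA, and levels are given as TPM, a share of all transcripts that is corrected for transcript length, and then scaled between libraries.

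The labelled cell type was checked first. Melanocyte genes were low in both clones compared with untreated cells: PMEL, a pigment granule protein, averaged 254 ± 13.6 TPM in clone 7, 31.2 ± 3.85 TPM in clone 8 and 9864 ± 156 TPM in untreated cells (SD, n = 3 each). SOX10 averaged 11.7 TPM in clone 7, 1.45 TPM in clone 8 and 468 TPM in untreated cells, so this defining gene of the melanocyte lineage was low in both clones and lowest in clone 8. Libraries of the same clone were not equally alike. The correlation of log2 values was 0.979 to 0.991 among the clone 7 libraries and 0.993 between clone 8 replicates 1 and 2, but clone 8 replicate 3 correlated with those 2 at 0.965 and 0.964, no higher than the most similar libraries of the 2 clones did with each other (0.933 to 0.973). In clone 8 replicate 3, ribosomal protein genes held 28.7% of TPM and mitochondrially encoded genes 6.74%, against 18.6 to 22.9% and 10.1 to 12.4% in the other 5 libraries. Clone 7 replicate 1 had 18671 genes above 0 TPM, against 21188 to 23412 in the other 5. These measures did not separate the clones in exact two-sided permutation tests (p = 0.9 for genes above 0, 0.4 for the mitochondrial share and 0.7 for the ribosomal share, with 0.1 the smallest p that 3 against 3 libraries allow). Counts are given below with and without these 2 libraries.

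Of 15657 genes tested, 576 (3.68%) were called different, which required a Benjamini-Hochberg adjusted p under 0.05 in limma and a log2 fold change of 1 or more in size. There were 337 genes higher in clone 7 (2.15% of those tested) and 239 lower (1.53%). The clones' libraries did not overlap for 574 of the 576 called genes, while 31.2% of all tested genes had no overlap. A log2 fold change of at least 2 was reached by 69 of the genes higher in clone 7 and 40 of those lower. With clone 7 replicate 1 and clone 8 replicate 3 both left out, 282 genes were called higher in clone 7 and 244 lower. Over every gene tested, log2 fold changes had a median of -0.0047. Fold changes are on the scale of log2(TPM + 1), clone 7 minus clone 8, and this scale understates the change of genes with low levels.

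**Figure D1:**
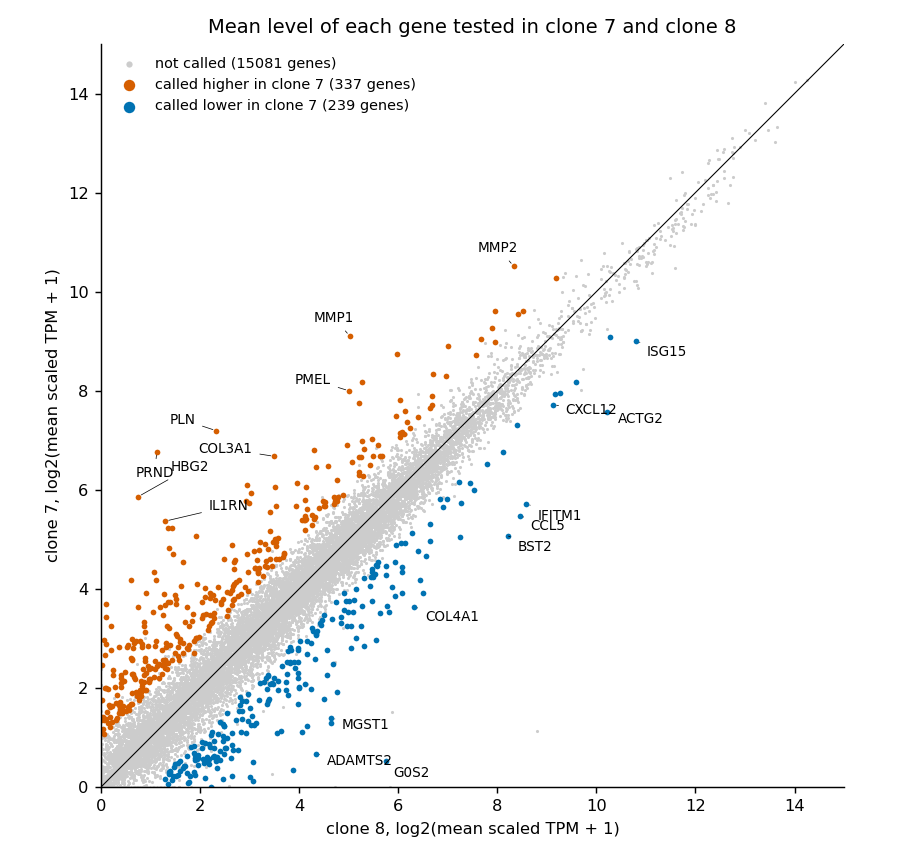
Mean level of each of the 15657 genes tested, as log2(mean scaled TPM + 1), in clone 7 (vertical axis) and clone 8 (horizontal axis). Orange points are the 337 genes called higher in clone 7 and blue points the 239 called lower. Grey points are genes that were not called; they lie along the black line of equal level, with PRND, PLN and HBG2 far above it and G0S2, ADAMTS2 and MGST1 far below.

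Calls among contractile genes and Notch genes were lower in clone 7, as were 22 of 23 calls among interferon-stimulated genes. Most calls among growth factor ligands and matrix enzymes, and all 5 among melanocyte genes, were higher in clone 7. Collagens, interleukins and receptor tyrosine kinases had calls in both directions.

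**Figure D2:**
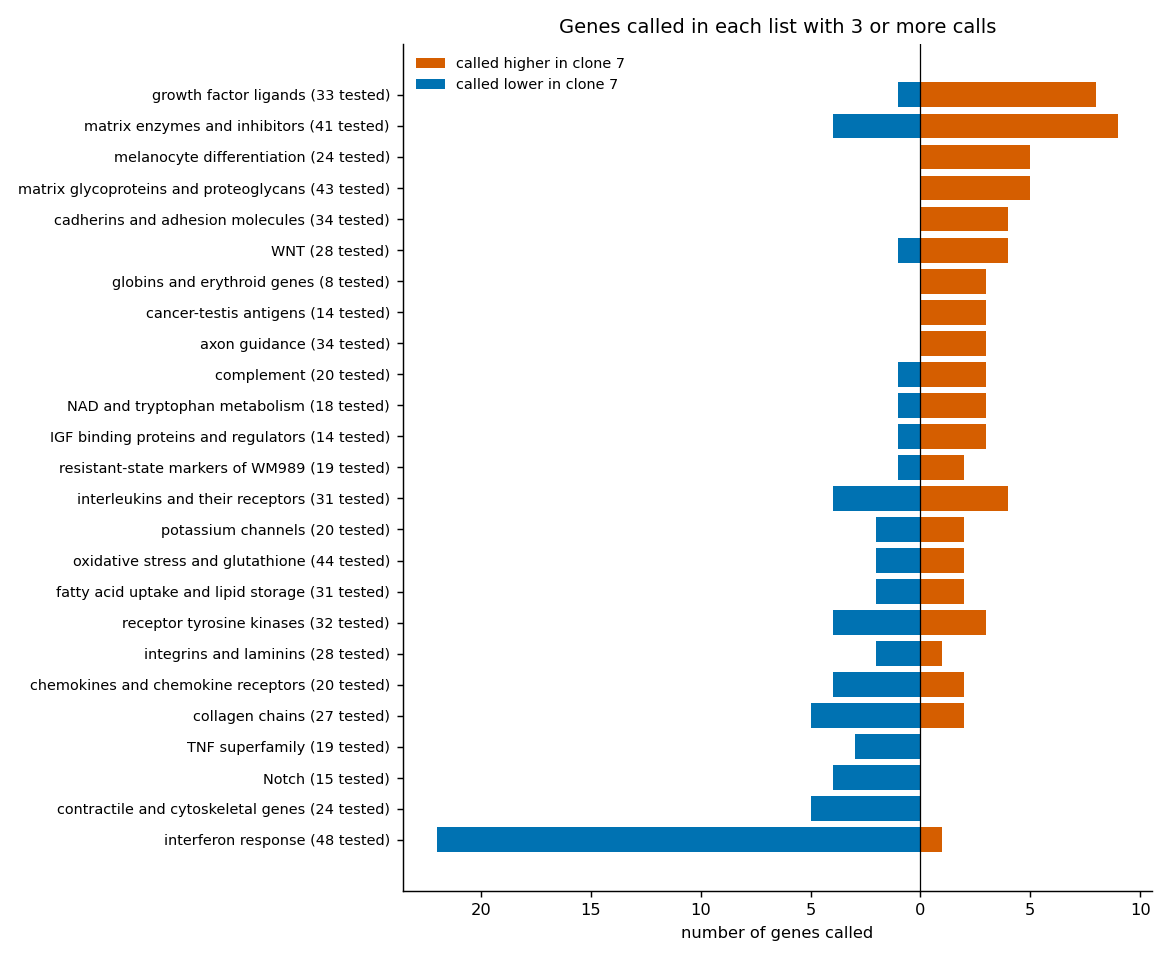
Number of genes called higher in clone 7 (orange, to the right) and lower in clone 7 (blue, to the left) in each gene list with 3 or more calls, with the number of members tested in brackets. The interferon response list has 22 members lower and 1 higher, and growth factor ligands have 8 higher and 1 lower.

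Many interferon-stimulated genes were lower in clone 7 than in clone 8. Of 48 tested genes on this list, 22 were lower in clone 7 and 1 was higher, beside the 1.53% lower and 2.15% higher among all genes. The log2 fold change was negative for 44 of the 48, with a median of -0.90. The same number of members, 23, was called when clone 7 replicate 1 and clone 8 replicate 3 were left out. The promoters of 3 of the genes with the largest differences or levels are shown because they carry the sequence through which the transcription factors activated by type I interferon are known to act. They are RefSeq promoters on GRCh38.p14, from 250 bases before to 50 bases after the gene's start, printed 5′ to 3′ along the gene, and capitals mark its core, TTTC and TTTC with any 2 bases between them, or the reverse complement, GAAA and GAAA with any 2 bases between them; where matches overlap, the capitals run through both. The IFITM1 promoter is chr11:313790-314089 on the plus strand, the ISG15 promoter chr1:1013247-1013546 on the plus strand and the BST2 promoter chr19:17405581-17405880 on the minus strand.
IFITM1: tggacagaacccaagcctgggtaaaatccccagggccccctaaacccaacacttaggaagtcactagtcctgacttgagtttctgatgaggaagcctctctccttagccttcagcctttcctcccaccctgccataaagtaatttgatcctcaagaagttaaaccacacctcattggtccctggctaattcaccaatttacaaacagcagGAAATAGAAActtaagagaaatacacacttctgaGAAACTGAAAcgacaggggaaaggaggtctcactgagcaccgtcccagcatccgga
ISG15: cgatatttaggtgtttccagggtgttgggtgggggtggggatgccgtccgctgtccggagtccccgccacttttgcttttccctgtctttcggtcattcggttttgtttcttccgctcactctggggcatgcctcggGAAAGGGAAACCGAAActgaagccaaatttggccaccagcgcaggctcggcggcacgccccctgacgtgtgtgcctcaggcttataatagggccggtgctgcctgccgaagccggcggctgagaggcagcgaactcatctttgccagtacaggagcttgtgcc
BST2: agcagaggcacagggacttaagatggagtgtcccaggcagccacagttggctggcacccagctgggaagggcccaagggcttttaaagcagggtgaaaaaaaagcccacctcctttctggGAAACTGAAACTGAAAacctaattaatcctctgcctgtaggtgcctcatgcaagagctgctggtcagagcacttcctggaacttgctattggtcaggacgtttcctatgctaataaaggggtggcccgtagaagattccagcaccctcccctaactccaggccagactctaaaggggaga
The core was searched on both strands. It occurs in 13 of the 18 promoters found for the 22 genes that were lower in clone 7 (72.2%), and in 996 of all 27305 promoters in the table (3.65%). Of all 48 tested members of the list, whether called or not, 38 had a promoter in the table, too few for a firm share, and 25 of these held the core (65.8%). The core is therefore common to the list, and no difference between members that were and were not lower was tested. A match in these windows describes the letters and does not show binding.

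BST2, which encodes tetherin, a membrane protein that holds back budding viruses, stood at 31.3, 36.9 and 28.9 TPM in the clone 7 libraries, against 210, 236 and 448 TPM in the clone 8 libraries. Its log2 fold change was -3.09 (SE 0.23, adjusted p = 4.31e-08). IFITM1, an antiviral protein of cell membranes, had 52.2, 58.1 and 44.3 TPM in clone 7, against 339, 361 and 449 TPM in clone 8, with log2 fold change -2.87 (SE 0.20, adjusted p = 1.26e-08). Every clone 8 library was several times above every clone 7 library for both genes, and untreated cells were far below both clones, at a mean of 2.44 TPM for BST2 and 1.16 TPM for IFITM1. ISG15, a ubiquitin-like protein attached to other proteins after interferon, had 469, 611 and 446 TPM in clone 7, against 1117, 1346 and 2889 TPM in clone 8, with 78.4 TPM on average in untreated cells. Its log2 fold change was -1.69 (SE 0.25, adjusted p = 1.09e-04). For BST2 and ISG15 clone 8 replicate 3 was the highest library, and without it the log2 fold changes were -2.75 and -1.28, both still called.

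RSAD2, the antiviral enzyme viperin, had 15.1, 13.1 and 12.4 TPM in clone 7, against 59.5, 60.9 and 59.7 TPM in clone 8, and its log2 fold change was -2.07 (adjusted p = 2.91e-06). ISG20, an exonuclease that degrades viral RNA, had 8.13, 8.94 and 8.24 TPM in clone 7, against 25.1, 30.8 and 54.5 TPM in clone 8 (log2 fold change -1.93, adjusted p = 9.05e-05). Untreated cells lay far below both clones for RSAD2, at 1.04 TPM, but between them for ISG20, at 15.3 TPM. Another 2 members, chosen after their values were seen, showed the same order: OASL, a member of the oligoadenylate synthetase family, averaged 24.4 TPM in clone 7 and 93.8 TPM in clone 8, and IFIT3, an RNA-binding antiviral factor, averaged 108 TPM in clone 7 and 277 TPM in clone 8. Both were called, with log2 fold changes of -1.90 and -1.35. The other members called lower, named to complete the count, were CMPK2, IFIT2, EPSTI1, DDX58, XAF1, MX2, GBP1, IFI44L, GBP4, SAMD9, GBP2, IRF1, IFI44, OAS3 and HERC5, with log2 fold changes from -1.79 for CMPK2 to -1.01 for HERC5.

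Not all interferon genes followed this order. IFI27, a small mitochondrial protein induced by type I interferon, was the member called higher in clone 7, with 166, 254 and 154 TPM in clone 7, against 43.2, 59.9 and 105 TPM in clone 8 (log2 fold change 1.51, SE 0.33, adjusted p = 0.0038). MX1, a GTPase that blocks viral replication, had 6.47, 5.95 and 7.77 TPM in clone 7, against 6.57, 6.9 and 5.64 TPM in clone 8. The libraries of the clones overlapped for MX1, and it was not called (adjusted p = 0.88). IFI27 and MX1 were named after their values were seen. Among 17 genes of HLA class I and antigen processing, HLA-F was called lower in clone 7, with a log2 fold change of -1.13, and lost its call without clone 8 replicate 3 (-0.93). This 1 call is 5.88% of that list, near the 3.68% of all genes tested. HLA genes are near copies of each other, so their levels are uncertain.

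**Figure D3:**
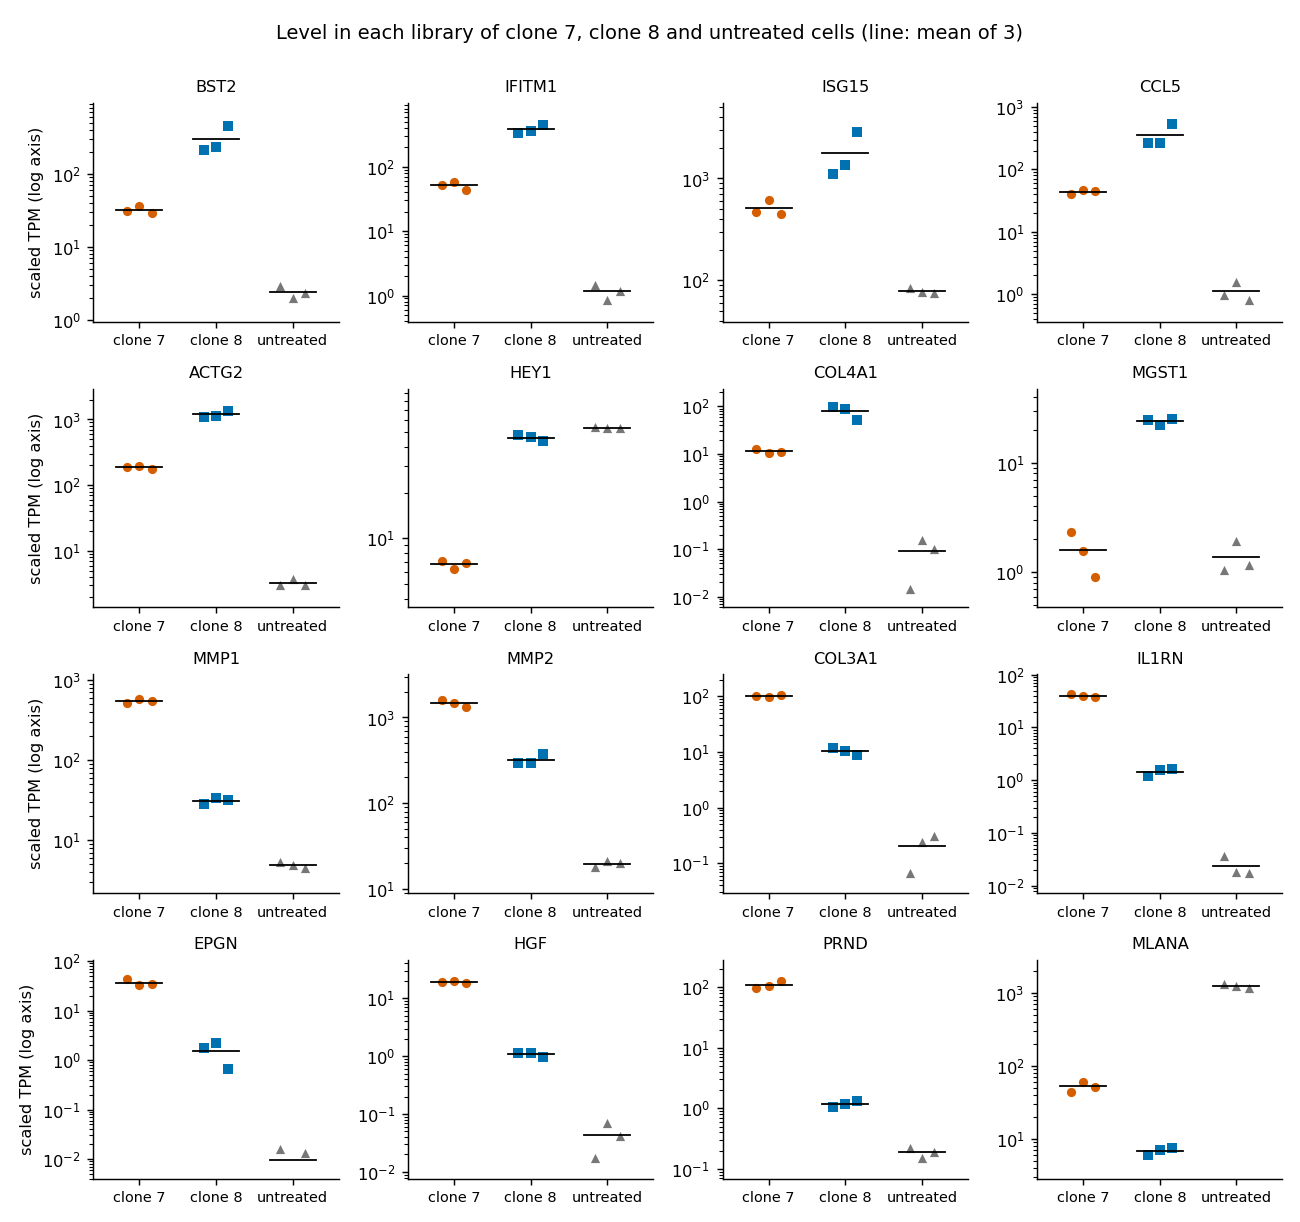
Scaled TPM (log axis) of 16 genes in each library of clone 7 (orange circles), clone 8 (blue squares) and untreated cells (grey triangles), with black lines for the mean of 3; a library at 0 TPM cannot be drawn on the log axis. From BST2 to MGST1 the clone 7 libraries lie below all clone 8 libraries, and from MMP1 to MLANA they lie above them.

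Inflammatory ligands differed gene by gene. Of 20 chemokines and chemokine receptors tested, 4 were lower in clone 7 and 2 higher, with a median log2 fold change of -0.17. CCL5, a chemokine that draws T cells and monocytes, had 39.7, 46.5 and 44.3 TPM in clone 7, against 261, 263 and 525 TPM in clone 8, with log2 fold change -2.90 (SE 0.29, adjusted p = 1.82e-06). CCL3, which acts on the same receptors, had 3.33, 2.47 and 2.54 TPM in clone 7, against 21.8, 23.2 and 33.8 TPM in clone 8 (log2 fold change -2.83, SE 0.23, adjusted p = 9.1e-08). CCL3L3 is a near-identical copy of CCL3, so reads may have been divided between them, and it too was lower in clone 7 (log2 fold change -2.52). The means of clones 9 to 13 ran from 0.393 to 2.61 TPM for CCL3, near that of clone 7 at 2.78 TPM and below that of clone 8 at 26.2 TPM. CXCL12, the ligand of CXCR4, had 208, 207 and 213 TPM in clone 7, against 534, 535 and 604 TPM in clone 8, and 0.51 TPM on average in untreated cells, and its log2 fold change was -1.41 (adjusted p = 9.8e-04). CXCL2 and CCL26 were the members called higher in clone 7, at log2 fold changes of 1.48 and 1.10. CXCL2 lost its call without any of clone 7 replicates 1 to 3 and clone 8 replicates 1 and 3, with adjusted p from 0.0565 to 0.066, and CCL26 without clone 7 replicates 2 and 3 and clone 8 replicates 1 and 2, with adjusted p from 0.0562 to 0.104.

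Interleukins and their receptors had 4 calls higher in clone 7 and 4 lower among 31 tested. IL1RN, the secreted antagonist of the IL-1 receptor, was at 42.8, 40 and 37.7 TPM in clone 7, against 1.2, 1.54 and 1.61 TPM in clone 8, and its log2 fold change was 4.07 (SE 0.43, adjusted p = 2.55e-06). IL1R1, the receptor that it blocks, went the other way, at 0.818, 0.476 and 0.637 TPM in clone 7, against 4.98, 4.97 and 2.97 TPM in clone 8 (log2 fold change -1.67, adjusted p = 4.08e-05). TSLP, an epithelial cytokine, had 53.4, 57.1 and 53.5 TPM in clone 7, against 15.5, 16.7 and 17 TPM in clone 8, a log2 fold change of 1.68 (adjusted p = 9.92e-06). Clone 7 and clone 8 libraries were apart for each of these genes, and untreated cells averaged less than 0.3 TPM of each. IL6, an inflammatory cytokine that signals through STAT3, averaged 63 TPM in clone 7 and 184 TPM in clone 8, with a log2 fold change of -1.53 (adjusted p = 0.00356). The other calls were IL1RL1 and IL1RAP, subunits of the IL-33 receptor, at log2 fold changes of 1.66 and 1.12, and IL4R, the IL-4 receptor, and IL33, an alarmin, at -1.40 and -1.33. IL6, IL1RAP, IL4R and IL33 are named outside the rule for gene names because they complete these counts. With a pseudocount of 5 the list kept 4 of its 8 calls, and IL1R1, IL1RL1, IL1RAP and IL33 were the ones lost.

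Of 24 contractile and cytoskeletal genes tested, 5 were lower in clone 7, 0 were higher and 19 were not called. In the whole list 21 had a negative log2 fold change, and the median was -0.57. ACTG2, a smooth muscle actin, had 192, 198 and 175 TPM in clone 7, against 1098, 1120 and 1356 TPM in clone 8, with log2 fold change -2.65 (SE 0.37, adjusted p = 6.69e-05). MYLK, the kinase that activates myosin in smooth muscle, had 304, 275 and 283 TPM in clone 7, against 865, 868 and 571 TPM in clone 8 (log2 fold change -1.39, adjusted p = 4.21e-04). TPM1, a tropomyosin, had 537, 557 and 522 TPM in clone 7, against 1143, 1252 and 1297 TPM in clone 8 (log2 fold change -1.19, adjusted p = 1.11e-04). All 3 were at 13.3 TPM or less on average in untreated cells. CNN1, the smooth muscle protein calponin, and KRT18, a keratin, were lower in clone 7 by the same log2 fold change, -1.24. KRT18 lost its call without clone 7 replicate 1, clone 7 replicate 3 or clone 8 replicate 3 (adjusted p = 0.0716, 0.0589 and 0.0905). ACTA2, the smooth muscle actin of myofibroblasts and named after its values were seen, had 1456, 1552 and 1292 TPM in clone 7, against 2791, 2957 and 3427 TPM in clone 8. Its log2 fold change of -1.09 was not called in the fit of all 23 libraries (adjusted p = 0.237) and was called in a fit of the 6 libraries alone (adjusted p = 0.0181). PPP1R14A, which inhibits myosin phosphatase, was at 1.81, 1.54 and 0.994 TPM in clone 7, against 16.6, 21.9 and 33.9 TPM in clone 8, with log2 fold change -3.32 (SE 0.22, adjusted p = 8.51e-09). MYOCD, myocardin, the coactivator that drives smooth muscle genes with SRF, averaged 11.6 ± 3.2 TPM in clone 7 and 53.5 ± 15.1 TPM in clone 8 (SD, n = 3 each; log2 fold change -2.10, adjusted p = 1.15e-04); it was also named after its values were seen.

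Notch genes were lower in clone 7 where they were called, 4 of 15 tested, with 0 higher and a median log2 fold change of -0.18. Notch receptors are cleaved after binding ligands on neighbouring cells, and the freed fragment turns on HES and HEY repressors. HEY1, such a target, had 7.08, 6.27 and 6.93 TPM in clone 7, against 47.5, 46.2 and 43.3 TPM in clone 8, and 53.5 TPM on average in untreated cells. The log2 fold change was -2.59 (SE 0.39, adjusted p = 1.52e-04), and clone 8 lay near the untreated level. JAG1, a ligand, had 13.5, 10.9 and 13 TPM in clone 7, against 53, 48.9 and 28.4 TPM in clone 8 (log2 fold change -1.68, adjusted p = 9.05e-05). The receptor NOTCH3 averaged 2.98 TPM in clone 7 and 15 TPM in clone 8, and the target HES4 averaged 15.3 TPM in clone 7 and 57.8 TPM in clone 8, with log2 fold changes of -1.98 and -1.76. Untreated cells were below both clones for JAG1, NOTCH3 and HES4. All 4 calls were kept when clone 7 replicate 1 and clone 8 replicate 3 were left out. Of 19 mesenchymal transcription factors, TWIST2 was the gene called, at a mean of 1.13 TPM in clone 7 and 10.7 TPM in clone 8 (log2 fold change -2.46, adjusted p = 1.9e-06). This 1 call is 5.26% of that list, near the 3.68% of all genes tested.

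Collagens differed by type. Of 27 chains tested, 2 were higher in clone 7 and 5 lower, and the median log2 fold change was -0.33. COL3A1, a chain of fibrillar collagen of soft tissue, had 99.3, 97 and 107 TPM in clone 7, against 11.6, 10.6 and 8.87 TPM in clone 8, with log2 fold change 3.17 (SE 0.33, adjusted p = 2.13e-06). COL4A1, a chain of the basement membrane network, was the reverse, with 12.6, 10.6 and 11 TPM in clone 7, against 95.2, 89.5 and 51.1 TPM in clone 8 (log2 fold change -2.64, SE 0.48, adjusted p = 9.94e-04). Its partner chain COL4A2, named after its values were seen, averaged 31.8 TPM in clone 7 and 151 TPM in clone 8 and was also lower (log2 fold change -2.18). COL18A1, another basement membrane chain, had 6.12, 5.81 and 6.09 TPM in clone 7, against 28.5, 29.9 and 37.2 TPM in clone 8 (log2 fold change -2.22, adjusted p = 2.47e-08), and COL5A3, a minor fibrillar chain, had a log2 fold change of -2.23. The remaining calls, COL14A1 at 1.31 and COL6A3 at -1.71, complete the count and lie outside the rule for gene names. COL14A1 fell under the fold limit with clone 7 replicate 1 and clone 8 replicate 3 both left out (0.99), and COL4A2 lost its call with a pseudocount of 0.1 (adjusted p = 0.0561). COL1A1, the main chain of type I collagen, was not called: it had 3035, 2550 and 3546 TPM in clone 7, against 4926, 4070 and 2696 TPM in clone 8, with libraries that overlapped and an adjusted p of 0.438. Its partner COL1A2 had 19.5, 15.9 and 17.6 TPM in clone 7, against 17.2, 15.3 and 16.7 TPM in clone 8 (adjusted p = 0.929), so both clones carried far more COL1A1 than COL1A2 per transcript length.

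Matrix enzymes and their inhibitors had 9 members higher in clone 7 and 4 lower among 41 tested, and the median log2 fold change was 0.14. MMP1, the collagenase that cuts fibrillar collagen, was at 516, 578 and 553 TPM in clone 7, against 28.6, 33.3 and 32.3 TPM in clone 8, and 4.89 TPM on average in untreated cells. The log2 fold change was 4.09 (SE 0.66, adjusted p = 3.27e-04). MMP3, a stromelysin, had 15.4, 17 and 18.8 TPM in clone 7, against 0.423, 0.661 and 0.493 TPM in clone 8 (log2 fold change 3.57, SE 0.31, adjusted p = 3.3e-07). MMP2, a gelatinase named after its values were seen, averaged 1464 ± 138 TPM in clone 7 and 320 ± 44.6 TPM in clone 8 (SD, n = 3 each; log2 fold change 2.20, adjusted p = 3.02e-06). CPA4, a carboxypeptidase, averaged 428 TPM in clone 7 and 61.7 TPM in clone 8, and PCOLCE, which speeds the trimming of procollagen, averaged 478 TPM in clone 7 and 128 TPM in clone 8, with log2 fold changes of 2.78 and 1.91. In the other direction, ADAMTS2, the protease that trims procollagen ends, was at 0.656, 0.521 and 0.569 TPM in clone 7, against 18.6, 23.5 and 15.5 TPM in clone 8, with log2 fold change -3.66 (SE 0.24, adjusted p = 8.31e-09). Clone 7 thus had more of the enhancer PCOLCE and less of the protease ADAMTS2 than clone 8. With a pseudocount of 5 the list kept 7 of its 13 calls.

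Secreted matrix proteins that were called stood higher in clone 7, 5 of 43 tested, with 0 lower and a median log2 fold change of 0.22. Summed over the whole list, the level went the other way, at 17073 to 17698 TPM in clone 7 and 18705 to 22907 TPM in clone 8. DCN, decorin, a proteoglycan that coats collagen fibrils, had 61.7, 61.7 and 56.2 TPM in clone 7, against 7.33, 8.12 and 6.02 TPM in clone 8 (log2 fold change 2.91, adjusted p = 1.92e-06). MGP, an inhibitor of calcification, averaged 65.7 TPM in clone 7 and 10.4 TPM in clone 8, and SPP1, osteopontin, averaged 111 TPM in clone 7 and 18.7 TPM in clone 8. SPP1 lost its call when clone 7 replicate 1 and clone 8 replicate 3 were both left out (adjusted p = 0.0582). SERPINB2, the plasminogen activator inhibitor of placenta and monocytes, had 37.7, 35.2 and 36 TPM in clone 7, against 1.69, 2.08 and 1.35 TPM in clone 8 (log2 fold change 3.79, SE 0.50, adjusted p = 3.75e-05). ITGA5, the alpha chain of the fibronectin receptor, was lower in clone 7, with 245, 245 and 250 TPM in clone 7, against 703, 636 and 498 TPM in clone 8 (log2 fold change -1.29, adjusted p = 4.39e-06).

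Growth factor ligands were mostly higher in clone 7 where called: 8 of 33 were higher and 1 lower, with a median log2 fold change of 0.29. EPGN, epigen, a ligand of the EGF receptor, had 42.9, 32.3 and 34.2 TPM in clone 7, against 1.79, 2.2 and 0.665 TPM in clone 8, with log2 fold change 3.92 (SE 0.42, adjusted p = 3.72e-06). HGF, the ligand of MET, had 19, 20.1 and 18.7 TPM in clone 7, against 1.15, 1.12 and 0.971 TPM in clone 8 (log2 fold change 3.29, SE 0.55, adjusted p = 4.61e-04). IGF1, the ligand of the IGF1 receptor, had 13.5, 15.6 and 13.3 TPM in clone 7, against 0.725, 0.865 and 1.05 TPM in clone 8 (log2 fold change 3.01, SE 0.30, adjusted p = 1.79e-06). Untreated cells had less than 0.1 TPM of each of these ligands, so both clones were above the untreated level and clone 7 was many times above clone 8. For HGF the means of clones 9 to 13 ran from 3.93 to 60.3 TPM, all above that of clone 8, and for IGF1 they ran from 0.12 to 3.19 TPM, all below that of clone 7. NRG1, the ligand of ERBB3 and ERBB4, averaged 72.4 ± 2.61 TPM in clone 7 and 26.2 ± 1.58 TPM in clone 8 (SD, n = 3 each), a difference of 1.43 on the log2 scale (adjusted p = 1.37e-05).

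Further ligands called were FGF7, a fibroblast growth factor, at 1.85, EREG, epiregulin, at 1.46, NTF3, neurotrophin 3, at 1.06, and PDGFA, a platelet-derived growth factor, at -1.06, all as log2 fold changes and all named after their values were seen. NTF3 lost its call without clone 7 replicate 2 (0.92) and PDGFA without clone 8 replicate 3 (-0.98). Among 32 receptor tyrosine kinases tested, most of which bind other ligands, 3 were higher in clone 7 and 4 lower, with a median of -0.01. ROR2, a receptor of WNT5A, was at 1.06, 1.34 and 1.6 TPM in clone 7, against 17.6, 16 and 17.2 TPM in clone 8 (log2 fold change -2.95, SE 0.25, adjusted p = 2.08e-07). NTRK3, the receptor of neurotrophin 3, had 11.2, 12.4 and 8.22 TPM in clone 7, against 29.2, 30.9 and 31.6 TPM in clone 8 (log2 fold change -1.46, adjusted p = 4.31e-05). FGFR2, which FGF7 activates, and EPHB2 were the other receptors lower in clone 7, at -1.51 and -1.26, and EPHB1, EPHA5 and ALK were the ones higher, at 1.27, 1.22 and 1.04. FGFR2, EPHB2, EPHB1, EPHA5 and ALK each had a mean under 3 TPM in both clones and lost their call with a pseudocount of 5, and ALK did so as well without clone 7 replicate 1 (0.85) or clone 8 replicate 3 (0.94). EPHB2, EPHA5 and ALK are named to complete the count. AXL, a receptor that marks drug-resistant melanoma cells, had 97.2, 87.6 and 102 TPM in clone 7, against 80.3, 72.9 and 63.7 TPM in clone 8, so the clones did not overlap, but it was not called (log2 fold change 0.40, adjusted p = 0.462). For EGFR, the libraries were at 15.1, 10.8 and 12.4 TPM in clone 7, against 18.1, 17.3 and 9.06 TPM in clone 8 (adjusted p = 0.718), and overlapped.

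Some melanocyte genes were higher in clone 7, PMEL, MLANA, SOX10, TYR and MITF among 24 tested, and all 5 were below the untreated level in both clones. The other 19 were not called. Over all 24 genes, 20 had a positive log2 fold change, and the median was 0.70. The PMEL libraries were at 257, 266 and 239 TPM in clone 7, against 31.8, 34.6 and 27 TPM in clone 8, with log2 fold change 2.99 (SE 0.85, adjusted p = 0.0236). MLANA, a melanosome protein, had 44.5, 60.4 and 51.5 TPM in clone 7, against 5.99, 7.12 and 7.54 TPM in clone 8 (log2 fold change 2.75, SE 0.84, adjusted p = 0.0345). Clone 7 was several times above clone 8 in every library of both genes. TYR, tyrosinase, which makes melanin from tyrosine, had 6.35, 7.07 and 6.69 TPM in clone 7, against 0.909, 0.454 and 0.541 TPM in clone 8 (log2 fold change 2.25, adjusted p = 0.0159). SOX10 had 11.2, 12.6 and 11.3 TPM in clone 7, against 1.67, 1.58 and 1.12 TPM in clone 8 (log2 fold change 2.38, adjusted p = 0.028), and MITF had 55, 44.5 and 54.3 TPM in clone 7, against 29, 25.8 and 20 TPM in clone 8 (log2 fold change 1.02, adjusted p = 3.94e-04). Untreated cells averaged 1240 TPM of MLANA, 270 TPM of TYR and 123 TPM of MITF, above both clones for each gene.

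The calls of PMEL, MLANA and SOX10 were lost when 1 library was left out, although their log2 fold changes moved little. These were 2.90 to 3.07 for PMEL, 2.64 to 2.85 for MLANA and 2.27 to 2.44 for SOX10. The SE of each gene rests on the spread within all 8 groups, not within clones 7 and 8 alone. Without any 1 of the 6 libraries the adjusted p was 0.0511 to 0.0676 for PMEL, 0.0665 to 0.0929 for MLANA and 0.0557 to 0.0759 for SOX10. MITF fell under the log2 fold change of 1 without clone 7 replicate 1 (0.97), clone 7 replicate 3 (0.97) or clone 8 replicate 3 (0.87), so 1 or 2 of the 5 members were called with 1 library left out. With clone 7 replicate 1 and clone 8 replicate 3 both left out the count was 0, and TYR had an adjusted p of 0.0794. A fit of the 6 libraries alone called 7 members of the list.

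A set of 14 genes at 100 TPM or more in untreated cells and at 5% or less of that in each of clones 9 to 13 was compared as a percentage of the untreated level. Clone 7 stood at 0.278 to 6.46% (median 2.54%) and clone 8 at 0.111 to 3.93% (median 0.566%), and the mean of clone 7 was above that of clone 8 for 12 of the 14 genes. Of these, 5 were called higher (PMEL, MLANA, SOX10, TYR and GPM6B), while FXYD3 and ERBB3 had libraries that overlapped, FXYD3 at nearly the same mean in both clones. The genes did not keep a fixed proportion: MLANA was at 4.21% of the untreated mean in clone 7 and FXYD3, a regulator of ion transport, at 0.278%. The choice of these genes used the untreated and other clones' levels, and the values are a description.

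**Figure D4:**
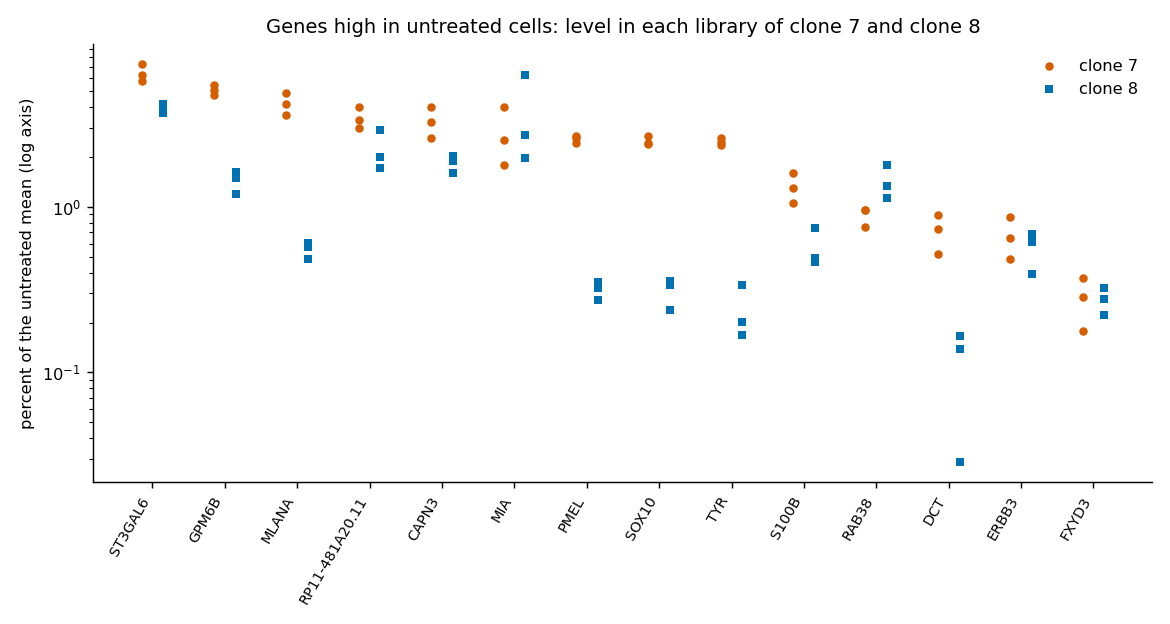
Level of 14 genes in each library of clone 7 (orange circles) and clone 8 (blue squares), as a percentage of the mean of untreated cells on a log axis. PMEL, SOX10, TYR, MLANA and DCT lie several times higher in clone 7, while FXYD3, ERBB3 and MIA overlap and RAB38 lies lower in clone 7.

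Among the largest differences were genes of unrelated functions. PRND, which encodes doppel, a relative of the prion protein, had 96.7, 104 and 125 TPM in clone 7, against 1.05, 1.17 and 1.32 TPM in clone 8 (log2 fold change 5.64, SE 0.74, adjusted p = 3.4e-05). Its neighbour PRNP, the prion protein gene, averaged 1238 TPM in clone 7 and 578 TPM in clone 8 (log2 fold change 1.10), and lost its call without clone 8 replicate 3 (0.99). PLN, phospholamban, which restrains the calcium pump of muscle, had 136, 145 and 154 TPM in clone 7, against 3.9, 4.28 and 3.85 TPM in clone 8 (log2 fold change 4.86, SE 0.22, adjusted p = 9.59e-11). Both genes were near 0 in untreated cells, at 0.189 and 0.0736 TPM on average.

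HBG2, a fetal globin, had 42.2, 78.4 and 50.4 TPM in clone 7, against 0.419, 0.98 and 0.63 TPM in clone 8, and 1.12 TPM on average in untreated cells. The log2 fold change was 5.08 (SE 0.78, adjusted p = 2.0e-04). The embryonic globin HBE1 had 12.1, 13.3 and 10.3 TPM in clone 7, against 0.0378, 0.0681 and 0.0882 TPM in clone 8, with 4.67 TPM in untreated cells, which lay between the clones. HBG1 was higher in clone 7 too, at a log2 fold change of 3.31, but HBG1 and HBG2 are near-identical and reads may have been divided between them. Of 9 markers of erythroid cells, which make globins in the body, 0 passed the filter for testing, 8 were at 1 TPM or less in all 6 libraries, AHSP was listed at 0 in all of them, and the summed level of the 9 was 0.664 to 1.38 TPM in clone 7 and 0.263 to 0.423 TPM in clone 8.

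Lipid and redox genes held some of the largest single changes while their lists were split. G0S2, an inhibitor of the fat-splitting enzyme ATGL, was at 0.97, 0.321 and 0.0277 TPM in clone 7, against 40.3, 53.2 and 64.7 TPM in clone 8, the largest fall among the genes named here, with log2 fold change -5.25 (SE 0.28, adjusted p = 3.3e-10). Means of clones 9 to 13 ran from 0.105 to 0.661 TPM, and that of untreated cells was 0.165 TPM, so clone 8 stood apart in level from every other group for this gene. CD36, a fatty acid transporter of the cell surface, was higher in clone 7, with 213, 205 and 221 TPM in clone 7, against 37.8, 42.8 and 26.4 TPM in clone 8 (log2 fold change 2.57, SE 0.65, adjusted p = 0.0119). CD36 lost its call when clone 7 replicate 1 and clone 8 replicate 3 were both left out (adjusted p = 0.0864). DGAT2, which makes triglycerides, was lower in clone 7 (log2 fold change -1.77) and fell under the fold limit with a pseudocount of 5 (-0.93), and FABP7, a fatty acid binding protein, was called higher at 1.53 but lost the call without any 1 of the clone 7 libraries or of clone 8 replicates 1 and 2 (adjusted p = 0.0544 to 0.0695).

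MGST1, a glutathione transferase of membranes, had 2.33, 1.58 and 0.907 TPM in clone 7, against 24.7, 22 and 25.2 TPM in clone 8 (log2 fold change -3.30, SE 0.33, adjusted p = 1.88e-06). In clones 9 to 13 the means ran from 25.5 to 194 TPM, all above clone 7, which was near the untreated mean of 1.39 TPM. HTATIP2, an oxidoreductase, went the other way, with 6.53, 5.42 and 3.98 TPM in clone 7, against 0.055, 0 and 0.123 TPM in clone 8 (log2 fold change 2.56, adjusted p = 2.51e-06). QPRT, an enzyme that makes NAD from tryptophan, had 25, 27.2 and 23 TPM in clone 7, against 1.23, 1.65 and 2.27 TPM in clone 8 (log2 fold change 3.28, SE 0.19, adjusted p = 7.81e-10). For QPRT and HTATIP2 clone 8 was the low group: the means of clones 9 to 13 ran from 23.8 to 44 TPM for QPRT and from 4.8 to 12.5 TPM for HTATIP2, and untreated cells averaged 13.4 and 1.25 TPM. ABCB5, a drug transporter of melanoma cells, had 14.4, 12.4 and 13.9 TPM in clone 7, against 1.79, 1.84 and 1.76 TPM in clone 8, and 12.2 TPM in untreated cells (log2 fold change 2.38, adjusted p = 0.0011). CLU, the secreted chaperone clusterin, averaged 289 ± 44.6 TPM in clone 7 and 37.5 ± 2.39 TPM in clone 8 (SD, n = 3 each; log2 fold change 2.90, adjusted p = 4.77e-08).

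Genes of the pathway that the drug targets were called at a share near that of all genes tested, 3.68%. Among 22 genes of the MAP kinase cascade 0 were called, and of 21 genes that report its output 1 was, PHLDA1, at a log2 fold change of 1.01 that fell under 1 without clone 7 replicate 1 (0.99) or clone 8 replicate 3 (0.94). In the cascade list 11 genes had a positive and 11 a negative log2 fold change. Its member MAPK3 averaged 75.8 TPM in clone 7 and 46.3 TPM in clone 8, and the libraries did not overlap. The log2 fold change of MAPK3, 0.72, passed the adjusted p (0.00307) but not the fold limit. DUSP6, an ERK phosphatase that ERK itself induces, had 330, 245 and 237 TPM in clone 7, against 265, 286 and 113 TPM in clone 8, and BRAF had 11.4, 8.21 and 9.38 TPM in clone 7, against 10.7, 9.78 and 6.48 TPM in clone 8. The libraries overlapped for both and neither was called (adjusted p = 0.682 and 0.759). SPRY4, an inhibitor of receptor signalling, was at 2.44, 1.93 and 1.9 TPM in clone 7, against 4.52, 4.22 and 2.26 TPM in clone 8, and also overlapped (adjusted p = 0.0716). There were also 0 calls in the lists of cell cycle inhibitors and p53 targets, cholesterol and fatty acid synthesis, glycolysis and hypoxia, mitochondrial respiration, mitochondrially encoded genes, ribosomal proteins and HOX genes. Positive log2 fold changes were held by 11 of 27, 26 of 32, 21 of 32, 14 of 30, 13 of 13, 6 of 40 and 8 of 30 genes, in that order. Clone 8 replicate 3 stood apart in its mitochondrial and ribosomal shares, as given above. In the cell cycle list 41 of 43 genes had a negative log2 fold change, with a median of -0.29, and AURKB, a mitotic kinase, was the gene called (-1.05), a call lost without clone 8 replicate 3 (-0.93). MKI67, a marker of dividing cells, had 18.3, 22 and 23.4 TPM in clone 7, against 31, 28.1 and 19.6 TPM in clone 8 (adjusted p = 0.557), and CCND1, cyclin D1, had 265, 196 and 214 TPM in clone 7, against 323, 326 and 332 TPM in clone 8, with a log2 fold change of -0.55 that passed the adjusted p (0.0264) but not the fold limit.

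Markers of other cell types were measured beside these groups. The fibroblast list summed to 3065 to 4105 TPM in clone 7, 3101 to 5261 TPM in clone 8 and 60 to 69.3 TPM in untreated cells, with COL1A1 the largest part, and 1 of its 11 markers, THY1, stayed at 1 TPM or less in all 6 libraries. Its members COL3A1 and DCN were called higher in clone 7, as given above. The immune list summed to 531 to 751 TPM in clone 7 and 196 to 280 TPM in clone 8, of which CD68, a lysosomal protein, made up 522 to 743 TPM in clone 7 and 184 to 265 TPM in clone 8, while 7 of its 11 markers, among them CD3E and TYROBP, were at 1 TPM or less in all 6 libraries. CD68 was called higher in clone 7, and PTPRC, the leukocyte phosphatase CD45, lower, at 0.622 to 1.37 TPM in clone 7 and 2.83 to 4.88 TPM in clone 8. The keratinocyte list summed to 99.9 to 116 TPM in clone 7 and 196 to 313 TPM in clone 8, of which KRT18 was most. KRT1 was listed at 0 in all 6 libraries and 8 of the 11 markers were at 1 TPM or less; TP63, at 0.346 to 0.703 TPM in clone 7 and 2.48 to 4.54 TPM in clone 8, was called lower as KRT18 was. TP63 and PTPRC lost their calls with a pseudocount of 5. For adipocyte markers the sums were 208 to 225 TPM in clone 7 and 30.1 to 45.1 TPM in clone 8, nearly all of it CD36, with ADIPOQ at 0.12 TPM or less. Endothelial markers summed to 4.9 to 6.35 TPM in clone 7 and 4.37 to 4.64 TPM in clone 8. Schwann and neuronal markers summed to 282 to 332 TPM in clone 7, 175 to 187 TPM in clone 8 and 466 to 476 TPM in untreated cells, with CDH19 at 0.0523 TPM or less. The part of these markers in the results above was not tested. In bulk RNA, fewer cells with a gene and less of its RNA per cell cannot be told apart.

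The untreated level was nearer to the lower clone for most called genes. Of the 337 genes higher in clone 7, untreated cells were below both clones for 181 (53.7%), between them for 99 (29.4%) and above both for 57 (16.9%). Of the 239 genes lower in clone 7, untreated cells were below both clones for 168 (70.3%), between them for 51 (21.3%) and above both for 20 (8.37%). On the log2 scale untreated cells were nearer to clone 8 for 241 of the 337 genes (71.5%) and nearer to clone 7 for 203 of the 239 (84.9%). The same shares were not taken over all genes tested, so these only describe the called genes. In 6 genes, all higher in clone 7, untreated cells lay between the clones at a log2 distance of at least 1 from each. HBE1, described above, is one. CD33, a sialic acid receptor known from myeloid cells, had 5.31, 7.99 and 5 TPM in clone 7, against 0.215, 0.406 and 0.235 TPM in clone 8, with 2.09 TPM on average in untreated cells. PCLO, a scaffold protein of synapses, had 12.1, 13.1 and 11.4 TPM in clone 7, against 1.83, 1.7 and 1.1 TPM in clone 8, with 4.33 TPM in untreated cells. The log2 fold changes of CD33 and PCLO were 2.44 and 2.39.

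Small differences ran along whole chromosomes. For 14445 of the tested genes a chromosome was found in GENCODE release 29 or RefSeq. The median log2 difference from the untreated mean was then taken per library for each chromosome. These library medians, and the tests on them, used genes that averaged at least 5 TPM over the means of the 2 clones. That was 478 genes of chromosome 16 and 318 of chromosome 15. On 14 of 23 chromosomes the 3 clone 7 libraries did not overlap the 3 of clone 8. On chromosome 16 clone 7 lay furthest above clone 8: the library medians were 0.05, 0.09 and 0.05 in clone 7, against -0.34, -0.33 and -0.14 in clone 8. On chromosome 15 clone 7 lay furthest below clone 8, with -0.33, -0.28 and -0.27 in clone 7, against 0.09, 0.12 and 0.22 in clone 8. Over all tested genes of chromosome 16, whatever their level, the median log2 fold change between the clones was 0.33, and 84.4% of its 660 genes were positive. For chromosome 15 the median was -0.31, and 18.8% of 480 genes were positive. Chromosomes 4 and 1 followed, at 0.23 and -0.18. Each of these reached the smallest p of the exact two-sided permutation test over 3 against 3 libraries, 0.1, which is 0.164 adjusted over 23 chromosomes. Genes of 1 chromosome are not independent replicates.

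**Figure D5:**
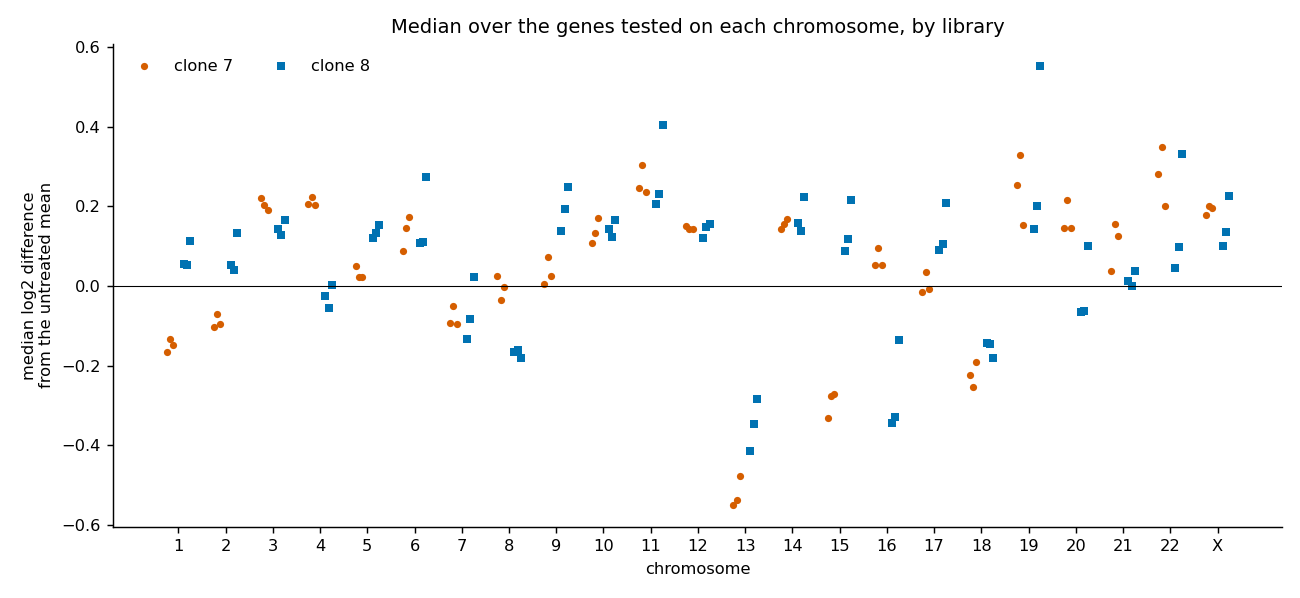
Median log2 difference from the mean of untreated cells on each chromosome, with 1 point per library, for clone 7 (orange circles) and clone 8 (blue squares). The medians are over tested genes that averaged at least 5 TPM over the means of these clones. The clones lie apart on chromosomes 15 and 16 in opposite directions, and clone 8 replicate 3 is the highest point on chromosome 19.

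Shorter stretches differed in the same way. Among runs of 41 neighbouring tested genes, the run from COG4 to TAF1C on chromosome 16 had a median log2 fold change of 0.52 with 39 of 41 genes positive. On chromosome 11 the run from TPCN2 to RPS3 had library medians of -0.46, -0.47 and -0.38 in clone 7, against 0.08, 0.08 and -0.02 in clone 8. The run from MTUS1 to CLU on chromosome 8 had a median log2 fold change of 0.51, and 5 of its genes were called higher in clone 7. Most genes in these runs were not called. These runs were the highest or lowest on their chromosomes and were picked for that, so their medians are a description. Whether the number of gene copies differs between the clones was not tested.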

How the data were processed

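Poly(A) RNA of 23 libraries was sequenced paired-end, per the labels' protocols. The submitters' processing notes name kallisto, which assigns reads to transcripts, and hg19, with no version; the annotation and the way transcripts were joined to genes are not stated in any source used here. The authors deposited a table of 35438 genes whose columns share 1 fixed sum, that of TPM, so its values were taken as TPM although the table is named as counts. TPM keeps no read depth, so depth is unknown and no counting interval is given. Reads carry no strand per the labels' kit, so overlapping and antisense genes cannot be separated.

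TPM values were multiplied by a scaling factor per library (0.963 to 1.35 in clones 7 and 8). It was the inverse of the trimmed mean ratio, taken on the log scale over 10822 genes. At each end 30% of ratios and 5% of levels were trimmed. Genes at 1 TPM or more in at least 2 libraries entered the test. Log2(TPM + 1) values of all 23 libraries, as 8 groups without covariates, were fitted with limma 3.58.1 in R 4.3.3, with a mean-dependent variance trend, and p-values were adjusted over 15657 genes by the Benjamini-Hochberg method. In simulated data for this comparison 95 of 100 genes changed by 1.5 on the log2 scale were recovered, and 100 of 100 changed by 2. There were 4 false calls. Only genes at a mean of 10 TPM or more in clone 7 were changed, and each gene had equal spread in every library. Among the real calls, 179 of 337 higher genes reached 10 TPM in clone 7 and 129 of 239 lower genes in clone 8. Recovery at lower levels and with an outlying library was not tested. Single values per library were compared by exact permutation tests.

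The text names the 15 highest and 15 lowest log2 fold changes at 10 TPM or more, the largest level differences, up to 4 called genes per list, a fixed panel and genes with untreated cells between the clones, in part; other genes are said to be named after their values were seen. The members and gene lists were chosen with earlier results of these data known. Alternatives were the TPM as deposited, median-of-ratios scaling, pseudocounts of 0.1 and 5, other filters and library sets, a replicate block and leaving out libraries. Results for a few genes are not reported here.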

Additional observations from a re-analysis of the deposited data

How the results depend on the processing

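Alternatives that rescaled the data, changed the filter or used 6 or 9 libraries gave 530 to 592 called genes. A pseudocount of 0.1 gave 841 genes, and a pseudocount of 5 gave 243, of which 152 were higher in clone 7 and 91 lower; the larger pseudocount shrinks the folds of low genes by its construction. Leaving out 1 library gave 513 to 592 genes, 285 to 339 higher in clone 7 and 228 to 259 lower. With clone 7 replicate 1 and clone 8 replicate 3 both left out, an alternative chosen after seeing the data, 526 genes were called, among them 230 of the 337 higher and 185 of the 239 lower genes. Same-numbered libraries of the 2 clones had correlations of their deviations of 0.295, -0.314 and 0.141, so the numbers do not pair them, and a replicate block gave 585 genes, 343 higher and 242 lower. Of 140 called genes chosen by the naming rule, 80 kept the call in all 16 alternatives, 33 lost it without 1 library and 43 with a pseudocount of 5; 0 changed sign. Genes that were not called changed sign as follows, and the cause was not tested. Without 1 library, BRAF ran from -0.0826 (clone 8 replicate 3 left out; -0.0027 without clone 7 replicate 1) to 0.2382, DUSP6 from -0.0415 (clone 8 replicate 3) to 0.6236, and MT-ND4L from -0.1071 (clone 8 replicate 3) to 1.3502. With both doubted libraries left out the values were -0.1977 for BRAF, -0.1926 for DUSP6 and -0.2819 for MT-ND4L. EGFR ran from -0.4582 to 0.0062 (clone 8 replicate 1), and MX1 from -0.0285 (clone 7 replicate 3; -0.0068 without clone 8 replicate 3) to 0.1399. TPM hides the number of reads, so the error of low values cannot be separated from the difference between libraries.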

Other observations

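Cell surface and secreted genes outside the groups above differed as well. Beside 3.68% of all genes tested, the share called was 17.9% for WNT genes, 11.8% for adhesion molecules and 8.82% for axon guidance genes. It was 15.8% for the TNF superfamily and 21.4% for cancer-testis antigens. Of 28 WNT genes tested, 4 were higher in clone 7 and 1 lower. SFRP1, a secreted WNT antagonist, had 67, 62.4 and 67.2 TPM in clone 7, against 18.6, 17.3 and 13.9 TPM in clone 8 (log2 fold change 1.93, adjusted p = 1.18e-06), and its relative SFRP4 had a log2 fold change of 1.39. DKK1, another antagonist, was called at 1.03 but lost its call without each of the 6 libraries, with adjusted p from 0.0623 to 0.132. WNT5A, a ligand of ROR2, was called at -1.11 but lost its call without most single libraries, at adjusted p up to 0.136. WNT16 fell under 1 without clone 7 replicate 3. Adhesion molecules had 4 calls of 34, all higher in clone 7. JAM2, a junction protein, had 15.6, 15.6 and 17.3 TPM in clone 7, against 2.33, 3.39 and 2.73 TPM in clone 8 (log2 fold change 2.18), CADM1 and ALCAM had 1.53 and 1.44, and NCAM2 had 1.18 but lost its call without each of the 6 libraries, with adjusted p from 0.0538 to 0.176.

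Of 34 axon guidance genes 3 were higher in clone 7. Among these, PLXNC1 was called at 1.24 but lost its call without each of the 6 libraries, with adjusted p from 0.061 to 0.144. SLIT3, a ligand of ROBO receptors, had 25, 21 and 22.7 TPM in clone 7, against 6.41, 5.88 and 4.09 TPM in clone 8, and 13.4 TPM on average in untreated cells, which lay between the clones. Its log2 fold change was 1.90 (adjusted p = 3.94e-04). Of 19 TNF superfamily genes 3 were lower in clone 7: TNFSF10, the death ligand TRAIL, averaged 0.462 TPM in clone 7 and 4.3 TPM in clone 8, and TNFRSF21, death receptor 6, averaged 1.14 TPM in clone 7 and 6.05 TPM in clone 8. TNFSF13B, the B cell factor BAFF, completed the count at a log2 fold change of -1.25 and lost its call without clone 7 replicate 1 or clone 8 replicate 3 (adjusted p = 0.0654 and 0.0514). Of 14 cancer-testis antigens 3 were higher in clone 7, led by MAGEA3, at 5.36, 4.99 and 4.42 TPM in clone 7, against 0.551, 0.639 and 0.435 TPM in clone 8. MAGEA3 has near copies, so reads may have been divided among them. All 3 TNF superfamily calls and that of MAGEA3 were lost with a pseudocount of 5.

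In 3 features, named after their values were seen and not called, 1 library stood apart. RP11-170L3.7 was at 1332 TPM in clone 8 replicate 3 and at 2.42 TPM or less in the other 5 libraries. AL590762.1 was at 168 TPM in clone 8 replicate 3 and at or near 0 in the other 5. AC008914.1 was listed at 0 in clone 7 replicate 1 and at 36.3 to 88.9 TPM in the other 5.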
